A study of Mus musculus with 4 samples.

Results

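The 10 genes studied here belong to the heart's contractile machinery and its upkeep, and their expression was followed across the cell clusters of a mouse stem cell differentiation. They were Myh6, Myh7, Ttn, Tnnt2, Actn2, Des, Csrp3, Hspb7, Atp2a2 and Cox6a2, chosen by name, and all 10 were among the 1197 genes of the authors' deposited table of cluster marker genes. That table compares 15 numbered clusters, each with the rest of the cells, in 2212 entries, of which 21 belong to these 10 genes. The cells came from mouse embryonic stem cells taken through a directed cardiac differentiation and were profiled by droplet single-cell RNA sequencing. The 4 libraries were the line with the genotype BRG1 3XFLAG, called WT, as embryonic stem cell derived mesoderm (MES) and as cardiac progenitors (CM, with cardiac myocyte as the source name), and the line BRG1 3XFLAG with BRM KO at the same MES and CM stages. All 4 thus carry the tagged BRG1, and BRM, which Smarca2 encodes, is an alternative ATPase to BRG1 in the BAF chromatin remodelling complex. The labels give 1 library to each genotype and stage and do not name clones or separate cultures.

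The table's columns name no library, and its deposited name mentions the knockout alone, so cells of only some of the 4 libraries may be in it. No value below therefore belongs to a genotype or stage, none is replicated, and groups were not tested against each other. Smarca2 and Smarca4 were listed for 0 clusters, which does not check the genotype labels. How many cells were profiled was not worked out here, and how deeply is unknown. The clusters rest on these same expression data, so a gene's place in its cluster's marker list describes the cluster and is not an independent finding.

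Heart muscle cells contract through sarcomeres, in which myosin thick filaments pull on actin thin filaments. The thin filaments are anchored at Z discs, and titin spans from Z disc to the middle of the sarcomere as a spring. Calcium released into the cell moves the troponin and tropomyosin of the thin filament and so starts contraction, and a pump in the sarcoplasmic reticulum then takes the calcium back up. Early cardiomyocytes switch on many sarcomere genes before the heart is fully formed.

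Of the 10 genes, 8 had a promoter in the RefSeq promoter table of build GRCm38.p6, and Atp2a2 and Cox6a2 had none there. The 250 bases before each annotated start were searched on both strands for 7 motifs of muscle and general transcription factors. The letters CATTCC, the core of the MCAT element bound by TEAD factors, stood before a start of Myh6, Myh7 and Tnnt2, which is 3 of 8, against 14.4% of all 27025 genes with a promoter in the table and 19.5% of 195 other genes that the authors' deposited table lists higher in cluster 2. A MEF2 site was found for Ttn only, against 3.42% of all genes and 4.10% of those 195. These 4 promoters are shown because they belong to the 4 genes with the highest folds below and hold those matches. Capitals mark CATTCC, or its reverse complement GGAATG, in the first 3, and the MEF2 match in Ttn.
Myh6, chr14:54966608-54966857, minus strand: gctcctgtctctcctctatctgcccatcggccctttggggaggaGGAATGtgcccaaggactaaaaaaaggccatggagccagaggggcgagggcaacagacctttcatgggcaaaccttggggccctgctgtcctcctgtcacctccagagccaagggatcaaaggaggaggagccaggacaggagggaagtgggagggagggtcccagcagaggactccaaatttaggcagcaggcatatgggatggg
Myh7, chr14:54994627-54994876, minus strand: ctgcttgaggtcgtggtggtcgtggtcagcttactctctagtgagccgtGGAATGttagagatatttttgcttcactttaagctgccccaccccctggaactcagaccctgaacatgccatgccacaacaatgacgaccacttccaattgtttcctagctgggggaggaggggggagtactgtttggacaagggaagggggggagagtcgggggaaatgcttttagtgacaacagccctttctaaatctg
Tnnt2, chr1:135836084-135836333, plus strand: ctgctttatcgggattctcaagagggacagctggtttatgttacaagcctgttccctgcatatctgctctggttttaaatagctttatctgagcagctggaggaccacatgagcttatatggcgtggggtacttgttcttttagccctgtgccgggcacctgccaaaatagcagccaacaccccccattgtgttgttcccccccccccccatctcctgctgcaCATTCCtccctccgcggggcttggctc
Ttn, chr2:76982548-76982797, minus strand: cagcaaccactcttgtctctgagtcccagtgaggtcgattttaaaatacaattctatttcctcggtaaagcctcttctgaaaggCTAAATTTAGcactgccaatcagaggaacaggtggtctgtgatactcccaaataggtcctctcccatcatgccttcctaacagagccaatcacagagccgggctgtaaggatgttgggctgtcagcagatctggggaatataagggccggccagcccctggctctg

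The match lay 206 bases before the start of Myh6, 201 before that of Myh7, 27 before that of Tnnt2 and, at its far end, 166 before that of Ttn. Tnnt2, Myh7 and Csrp3 have a second start in the table, and a gene was counted where either start had a match. The E-box CANNTG was found for 8 of 8, against 69.3% of all genes and 63.6% of the 195 other genes higher in cluster 2. AGATA or TGATA, the GATA type, was found for 5 of 8 against 43.8% and 35.4%, and AAGTG, the NKX type, for 4 of 8 against 44.3% and 43.6%. TATAAA was found for 0 of 8 against 14.3% and 12.8%, and the CArG box for 0 of 8 against 1.62% of all genes and 7.69% of the 195. Matches of different motifs can overlap, and each describes letters only.

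The authors' deposited table lists all 10 genes as higher in cluster 2, as it does 22.7% of its genes. They were also all listed higher in cluster 13, with 5.35% of the table's genes, and Des alone was listed higher in cluster 9, with 9.61%. None was listed for the other 12 clusters. The choice of the genes was made with these listings known, so the counts describe the genes and support nothing. The 12 cardiomyocyte markers in the table, of 14 looked for, were all listed higher in cluster 2 and 10 in cluster 13. Both counts include Myh6, Myh7 and Tnnt2, for which they only repeat the choice of the genes. The same holds for Des among the smooth muscle markers. Of 15 skeletal muscle markers only Acta1, which the early heart also uses, was in the table, and 0 of 8 endothelial or blood markers were. Of 9 smooth muscle markers, Acta2, Tagln, Cnn1 and Des were listed higher in cluster 2, and Acta2, Tagln and Des in cluster 9; early heart muscle also uses these genes. Of the 6 fibroblast markers in the table, 0 were listed higher in cluster 2 or 13 and 1, Col1a1, in cluster 9.

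**Figure D1:**
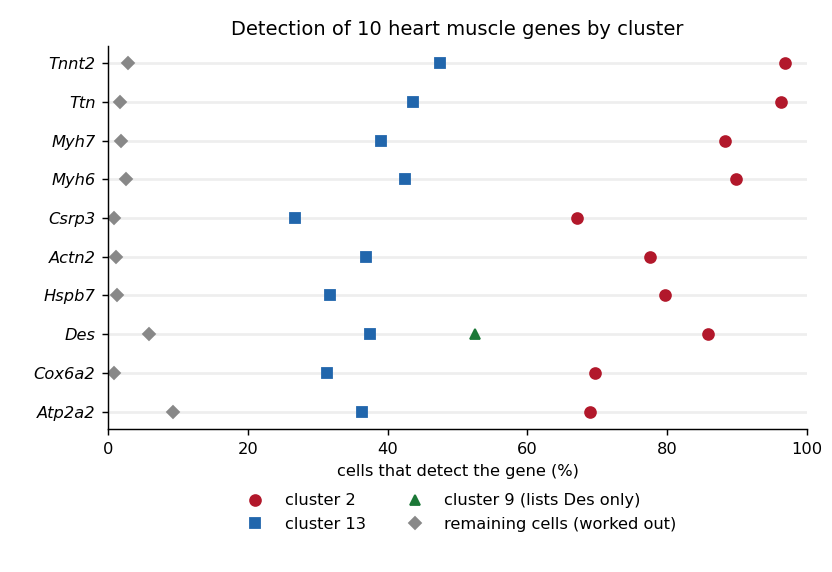
Percent of cells that detect each of the 10 genes inside cluster 2, cluster 13 and, for Des, cluster 9, per the authors' deposited table, with the share in the remaining cells worked out from it. Cluster 2 lies between 67.1% and 96.9%, cluster 13 between 26.8% and 47.5%, and the remaining cells between 0.869% and 9.23%.

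The thick filament genes were Myh6 and Myh7, which encode the alpha and beta heavy chains of cardiac myosin. Myh6 was detected in 89.9% of the cells of cluster 2 and in 2.7% of all other cells, and was 14.8-fold higher there in the authors' deposited table. Myh7 was detected in 88.3% inside and 2.0% outside and was 15.6-fold higher there, per the authors' deposited table. Of all pairs among the 10 genes these 2 lay closest together in their natural log fold changes over the 15 clusters, with a distance of 0.153. They are neighbouring protein-coding genes in the RefSeq annotation of GRCm38.p6 and close relatives in sequence. Over the last 500 bases of the longest coding transcript, 42.8% of the 50-base stretches of Myh6 were found in Myh7 and 51.0% of those of Myh7 in Myh6, while for the other 8 genes 0% were found in any other gene (GENCODE M21). A read that lies within such a stretch cannot be given to one of the 2 genes, so their separate values are less certain than the others. The folds are not a ratio of alpha to beta chain, because the table gives no levels.

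Ttn, the giant spring of the sarcomere, was detected in 96.3% of the cells of cluster 2 and 1.9% of other cells, and was 20.3-fold higher there, per the authors' deposited table. Tnnt2, the cardiac troponin T that ties the calcium-sensing complex to the thin filament, was detected in 96.9% inside and 3.0% outside and was 35.2-fold higher there, per the authors' deposited table. Tnnt2 ranked 4th and Ttn 9th by fold among the 272 genes listed higher in cluster 2, ahead of Myh7 in place 12 and Myh6 in place 15. These 4 filament genes had the highest folds of the 10.

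The Z disc and support genes followed. Csrp3, a LIM protein of the Z disc, was detected in 67.1% of the cells of cluster 2 and 1.0% of others and was 10.5-fold higher there, per the authors' deposited table. Actn2, the alpha-actinin that anchors thin filaments at the Z disc, was detected in 77.5% against 1.3% and was 8.42-fold higher there, per the authors' deposited table. Hspb7, a small heat shock protein of heart muscle, was detected in 79.7% against 1.5% and was 8.08-fold higher there, per the authors' deposited table. Fold and detection did not order these 3 genes alike, since Csrp3 had the highest fold and the lowest share of detecting cells.

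Des, Cox6a2 and Atp2a2 had the lowest folds of the 10. Des, the intermediate filament that links Z discs of neighbouring fibrils, was detected in 85.8% of the cells of cluster 2 and 7.8% of others and was 7.62-fold higher there, per the authors' deposited table. Cox6a2, the heart and skeletal muscle form of a subunit of respiratory complex IV, was detected in 69.7% against 1.1% and was 6.90-fold higher there, per the authors' deposited table. Atp2a2, the SERCA2 calcium pump, was detected in 68.9% against 9.4% and was 5.04-fold higher there, per the authors' deposited table. Over all 10 the median fold in cluster 2 was 9.46, beside 2.30 over the 272 genes listed higher there, and the lowest rank was 40, of Atp2a2.

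Cox6a2 can be set beside Cox6a1, the form of the same subunit found in most tissues. Cox6a1 was 1.94-fold higher in cluster 2 and was detected in 78.2% of its cells and 50.2% of all others in the authors' deposited table. In cluster 13 the authors' deposited table gives 2.53-fold for Cox6a2 and 1.70-fold for Cox6a1. Cox6a2 was detected in 31.3% of the cells of cluster 13 and Cox6a1 in 61.5%, per the authors' deposited table. Outside clusters 2 and 13 the muscle form was thus rare, in 0.888% of cells, and the common form was widely detected, in 50.1%.

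The cells that detected each gene were divided among the clusters with cluster sizes solved from the table's shares, by which cluster 2 held 12.6% of all cells, cluster 9 3.24% and cluster 13 0.497%. Csrp3 was detected in 9.37% of all cells, the lowest share, and Des in 17.7%, the highest. Solved separately from each cluster that lists a gene, this share differed by at most 0.0932 percentage points. Cluster 2 held 90.5% of the cells that detected Csrp3 and 90.5% of those that detected Cox6a2, 89.2% for Actn2, 88.4% for Hspb7, 88.0% for Ttn and 86.4% for Myh7. It held 82.8% for Myh6 and 82.1% for Tnnt2. Des and Atp2a2 stood apart, with 61.4% and 51.5%. Cluster 13 held between 1.05% and 1.67% of the detecting cells of every gene, and cluster 9 held 9.63% of those of Des.

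**Figure D2:**
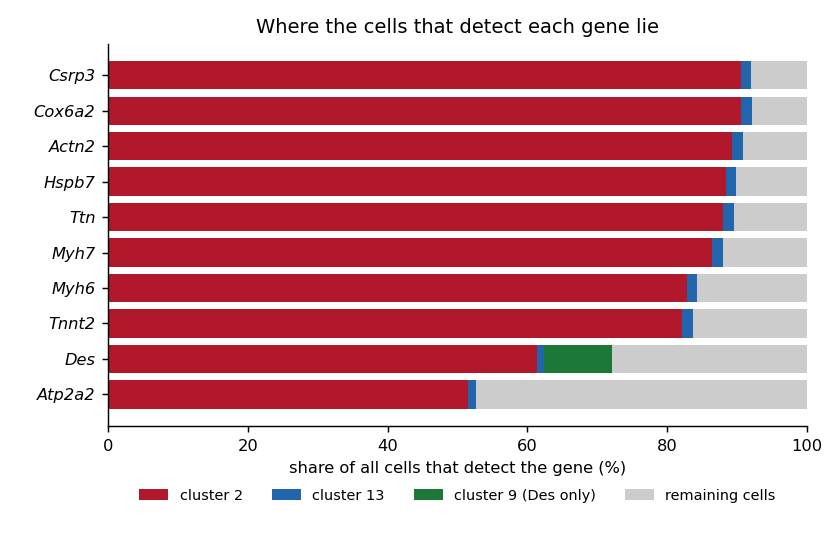
Division of all cells that detect each gene among cluster 2, cluster 13, cluster 9 (Des only) and the remaining cells, in percent, worked out from the authors' deposited table. Cluster 2 holds 82.1% or more for 8 genes, 61.4% for Des and 51.5% for Atp2a2.

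The remaining cells, those of no cluster that lists the gene, detected most of these genes rarely. Their share was 0.869% for Csrp3, 0.888% for Cox6a2, 1.15% for Actn2, 1.33% for Hspb7, 1.67% for Ttn, 1.80% for Myh7, 2.48% for Myh6 and 2.80% for Tnnt2. It was 5.91% for Des, which smooth muscle also uses, and 9.23% for Atp2a2, which most cell types use. In droplet data a low share can come from free RNA, and its part here was not tested. A gene could enter the table only where at least 25.1% of cells detected it inside or outside the cluster and its natural log fold change reached 0.50 in size, the smallest values in the table. As only 9.37% to 17.7% of all cells detected these genes, the share outside a cluster could not reach that minimum, and a gene could be listed lower only where its own cells did. That they were listed lower in 0 clusters is therefore no result. For Csrp3 and Cox6a2 the remaining cells leave room for at most 4.85% and 4.96% of detecting cells in cluster 0, the largest cluster. In cluster 8, the smallest of clusters 0 to 8, they leave room for at most 12.5% and 12.8%. The other genes had looser bounds. In clusters 0 and 8 these were 15.6% and 40.2% for Tnnt2 and 31.8% and 81.7% for Des. Atp2a2 had a bound of 51.6% in cluster 0 and none in cluster 8.

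Cluster 13 held the same 10 genes at lower values. Tnnt2 was detected in 47.5% of its cells and was 3.52-fold higher than in all other cells, Ttn in 43.6% and 3.40-fold, and Myh6 in 42.5% and 3.34-fold, in the authors' deposited table. Myh7 was detected in 39.1% and was 2.89-fold higher, and Atp2a2 in 36.3% and 2.83-fold, in the authors' deposited table. These were the 5 genes past 1 on the natural log scale. The other 5 were Cox6a2, Csrp3 at 2.39-fold, Actn2 at 2.27-fold, Des at 2.17-fold and Hspb7 at 1.91-fold in the authors' deposited table. Tnnt2 ranked 2nd, Ttn 4th and Myh6 7th by fold among the 64 genes listed higher in cluster 13, and Hspb7 was in place 44. The median fold was 2.68, beside 2.13 over those 64 genes.

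Beside them, all 10 mitochondrially encoded genes in the table were listed higher in cluster 13, from 1.78-fold to 3.25-fold, and 4 of 10 in cluster 2, in the authors' deposited table. Their part in the values of cluster 13 was not tested. Since cluster 2 is among the other cells, it lowers the folds of cluster 13. With cluster 2 taken out of the reference, Tnnt2 was 20.6-fold, Ttn 12.3-fold and Myh6 9.48-fold higher in cluster 13, and Hspb7, the lowest, 3.66-fold.

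**Figure D3:**
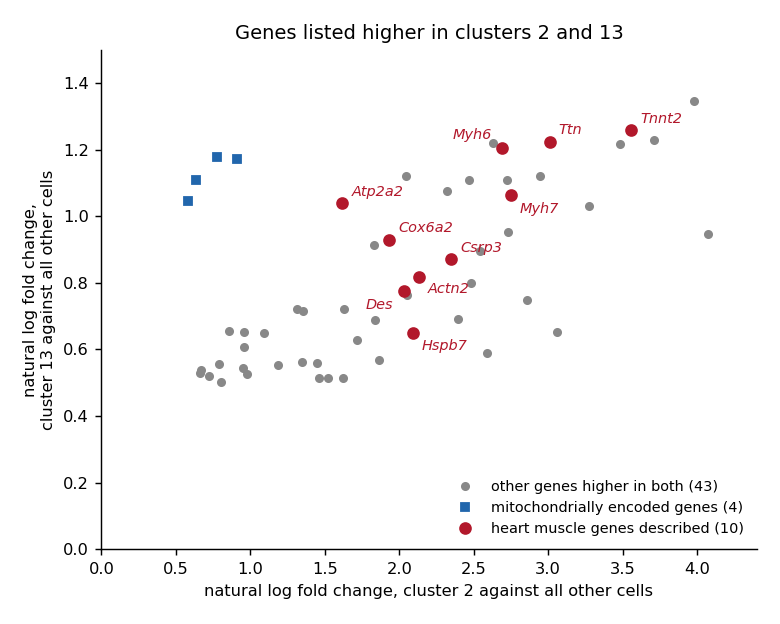
Natural log fold change in cluster 2 (x axis) and in cluster 13 (y axis), each against all other cells, of the 57 genes that the authors' deposited table lists higher in both. The 10 genes run from Atp2a2 at 1.62 to Tnnt2 at 3.56 in cluster 2 and from Hspb7 at 0.65 to Tnnt2 at 1.26 in cluster 13, and the 4 mitochondrially encoded genes lie at the left, below 1 in cluster 2.

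Levels in clusters 2 and 13 were put on one scale, the mean of all cells. Each of the 10 genes was higher in cluster 2 than in cluster 13. The level in cluster 2 was 2.24 times that in cluster 13 for Hspb7, 2.01 times for Csrp3, 1.93 times for Actn2, 1.92 times for Des, 1.91 times for Myh7, 1.90 times for Tnnt2 and 1.76 times for Ttn. It was 1.63 times for Myh6, 1.57 times for Cox6a2 and 1.19 times for Atp2a2. There is no replicate spread to set these against. On the natural log scale 7 of these ratios passed 0.50, and those of Myh6, Cox6a2 and Atp2a2 did not. That value is only the table's minimum for listing, so it does not show which genes differed. Ttn, the lowest of the 7, was at 0.563 and Myh6 at 0.490. The median of the 10 was 1.91. It was 1.73 over all 57 genes listed higher in both clusters, which include the 10 and 4 mitochondrially encoded genes, and 1.89 over the 21 others that under 10% of the remaining cells detected, nearly the same as for the 10.

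The place of cluster 13 between the remaining cells and cluster 2 was then worked out by mean level and by detection, with the remaining cells at 0% and cluster 2 at 100%. By detection the 10 genes lay close together, from 38.9% for Hspb7 to 47.5% for Tnnt2. By mean level they spread from 37.0% for Hspb7 to 80.2% for Atp2a2, with a median of 50.3%. Actn2, at 45.5% by level and 46.8% by detection, and Hspb7 lay below equality, and the other 8 above it. No counting error was worked out for these positions, so the side on which a gene near equality lay is uncertain. Atp2a2 was farthest from equality, with 80.2% by level against 45.4% by detection. Cox6a2 followed with 57.6% against 44.2% and Myh6 with 58.6% against 45.8%. Another 21 genes listed higher in both clusters were detected in under 10% of the remaining cells. By level these 21 ran from 28.8% to 64.4%, so 80.2% lay outside their range. By detection they ran from 29.6% to 48.2%, with a median of 45.2% beside 44.3% for the 10 genes. The table's minimum of 25.1% for listing also limits how low a position by detection could be.

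**Figure D4:**
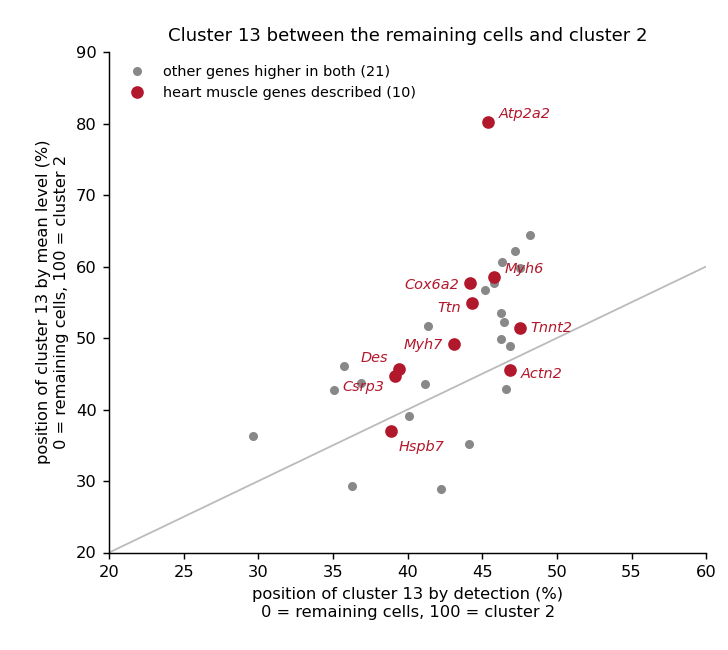
Position of cluster 13 between the remaining cells (0%) and cluster 2 (100%) by share of detecting cells (x axis) and by mean level (y axis), for the 10 genes and 21 other genes listed higher in both clusters and detected in under 10% of the remaining cells; the line marks equal positions. Atp2a2 lies at 80.2% by level, above the 64.4% that the highest of the 21 genes reaches.

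Des was the one gene of the 10 listed for one more cluster, cluster 9. It was detected in 52.5% of that cluster's cells and 16.5% outside it and was 1.93-fold higher there, per the authors' deposited table, in place 65 of the 115 genes listed higher there. With cluster 2 out of the reference it was 3.80-fold higher. The level in cluster 2 was 2.21 times that in cluster 9, and the level in cluster 13 was 1.15 times that in cluster 9, under the table's threshold. More cells of cluster 9 than of cluster 13 detected Des, 52.5% against 37.4% in the authors' deposited table. The order by level was thus cluster 2, then clusters 13 and 9, whose small difference was not tested, then the remaining cells. By position, cluster 9 lay at 58.3% by detection and 38.0% by level, on the other side of equality from cluster 13 at 39.4% and 45.7%.

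Other genes of the same roles were counted in 6 lists, chosen by role. Of their 90 genes, 51 were in the authors' deposited table, 45 were listed higher and 1 lower in cluster 2, where 22.7% of the table's genes were listed higher and 25.7% lower. Their median fold in cluster 2 was 3.72. In cluster 13, 20 of the 51 were listed higher, where 5.35% of the table's genes were. In cluster 9, 5 of the 51 were listed higher, a share near the 9.61% of the table's genes, and 2 lower, where 4.01% of the table's genes were.

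The thick filament list had 7 of 9 genes in the table, all higher in cluster 2 and 4 higher in cluster 13. Its leaders were the light chains Myl7 at 53.5-fold and Myl4 at 40.8-fold in cluster 2 in the authors' deposited table. Myl3, another light chain, named here after its values were known, was 1.85-fold lower in cluster 9 while 31.9% of its cells detected it against 13.4% outside, per the authors' deposited table. The thin filament list had 11 of 14 genes in the table, with 10 higher in cluster 2 and 7 in cluster 13, led by the cardiac actin Actc1 at 58.9-fold and the slow troponin I gene Tnni1 at 26.4-fold in cluster 2 in the authors' deposited table. Tpm4, a tropomyosin used mainly outside the sarcomere, was the 1 gene lower in cluster 2, by 1.68-fold in the authors' deposited table.

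The Z disc list had 12 of 25 genes in the table, with 11 higher in cluster 2 and 3 in cluster 13. The small heat shock genes Cryab at 15.4-fold and Hspb1 at 12-fold led it in cluster 2 in the authors' deposited table. All 5 calcium handling genes in the table, of 13 on the list, were higher in cluster 2 and 0 were listed for cluster 13. They were led by Pln, the inhibitor of the Atp2a2 pump, at 3.72-fold and by the calcium release channel Ryr2 at 3.05-fold in the authors' deposited table. Pln was detected in 32% and Ryr2 in 39.2% of the cells of cluster 2 in the authors' deposited table, against 68.9% for the pump itself. Atp2a2 was thus the one calcium handling gene of those looked at that cluster 13 listed. The other 5 were detected in 39.2% or fewer of the cells of cluster 2. If their detection fell in cluster 13 as that of the 10 genes did, they would miss the table's minimum. The 10 genes had to pass that minimum to be listed there, so a larger fall in other genes is possible. The absence of these 5 genes from the list of cluster 13 is therefore no result.

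The energy list had 9 of 15 genes in the table, with 8 higher in cluster 2 and 5 in cluster 13, led by the muscle glycolysis enzymes Pgam2 at 11.8-fold and Eno3 at 4.48-fold in cluster 2 in the authors' deposited table. The heart transcription factor list had 7 of 14, with 4 higher in cluster 2 and 1, Nkx2-5, in cluster 13. In the authors' deposited table cluster 2 had Nkx2-5 5.09-fold and Mef2c 2.62-fold higher. Over all lists, the 20 genes that cluster 13 also listed higher were detected in a median of 79.5% of the cells of cluster 2, and the 25 that it did not list in 39.2%. For the 10 genes, detection in cluster 13 was 39.9% to 52.7% of the share in cluster 2. The same fall would put a gene at the second level under the table's minimum of 25.1% in cluster 13. The 10 genes had to pass that minimum to be listed there, which bounds their range from below. Unlisted genes may have fallen further. Of the 25, 6 were detected in over 60% of the cells of cluster 2, up to Slc25a4 at 98.9%, Acta2 at 97.3% and Eno3 at 75% in the authors' deposited table, and for these 3 the minimum would have been passed. For genes at the lower level, absence from the list of cluster 13 therefore does not show that they were not higher there.

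Nearest to the median pattern of the 10 genes over the 15 clusters, by Euclidean distance between natural log fold changes with unlisted clusters at 0, was Tnni3, the adult cardiac troponin I, at 0.119. Chchd10, a mitochondrial protein gene, followed at 0.237, Pgam2 at 0.257, Hspb2 at 0.291 and Hspb1 at 0.307. The folds of Tnni3 were 10.2 in cluster 2 and 2.93 in cluster 13, per the authors' deposited table. Taken singly, Myh7 and Ttn lay nearest to Sh3bgr, Myh6 to Myl2, Tnnt2 to Myl4, Csrp3 to Hspb1 and Atp2a2 to Nkx2-5, while Actn2, Hspb7 and Cox6a2 lay nearest to Hspb2. Over the 15 clusters Des had no close neighbour: the nearest was Lbh at 0.621, where the other 9 had one at 0.318 or nearer. The entry of Des for cluster 9, at 0.66 on the natural log scale, sets it apart here. In clusters 2 and 13 alone Hspb2, at 2.05 and 0.76, lay close to Des, at 2.03 and 0.77. These genes were all listed higher in clusters 2 and 13, and for genes other than Des the distance rests mainly on those 2 clusters.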

How the data were processed

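The 4 libraries were made with the 10x Genomics V2 chemistry, per the series' design text. Per the submitters' processing notes, the tools were Cell Ranger and Seurat, with mm9 as the genome; versions, cell filters, doublet treatment, cluster settings and any use of strand in counting were not stated in these sources. On the opposite strand, other annotated genes cover the 3′ ends of Myh6, Myh7, Des and Cox6a2 in GENCODE M21, so their reads could mix if strand was not used.

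The authors deposited natural log fold changes, fractions of cells with the gene inside and outside each cluster (printed as percent) and p-values, per the file headers. The p-values compare cells, which are not replicates, and served only as a threshold in 1 alternative. Counts per cell were not used here. The natural log base was checked on 6 genes listed for 12 or more clusters: the level left for their unlisted clusters stayed within 0.50 for 6 genes in the natural base, 1 in base 2 and 0 in base 10.

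Folds are exponentials of the deposited values, and any constant the authors added before taking logs would understate the folds and level ratios of weak genes. Cluster sizes were solved by least squares from 407 genes listed for more than 1 cluster (sum 100.002%, residual SD 0.0228 percentage points). Levels relative to the mean of all cells follow from fold and size; positions do not depend on an added constant. These steps were run on simulated data built from the same relations, with rounded shares and no sampling of cells. Sizes were off by at most 0.0266 percentage points and levels by at most 0.459%. That run checks the arithmetic and cannot show the counting error of real cells.

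The genes and lists were chosen with earlier results of these data known. All 10 genes are named, with the 2 genes of largest change in cluster 2 from each list and the nearest genes by distance. All 10 symbols matched GENCODE M21. The tools were Python 3.11.15 with scipy 1.17.1, numpy 2.4.6, matplotlib 3.10.9 and pandas 2.3.3.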

Additional observations from a re-analysis of the deposited data

How the results depend on the processing

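All 10 genes were higher in cluster 2 with a threshold of 1 on the natural log scale, at an adjusted p-value at or below 1e-50 and at detection in at least 50% of cells. In cluster 13 the 10 genes listed higher became 5, 0 and 0 under these 3 alternatives; the p-value also depends on how many cells a cluster holds. In cluster 9 the 1 gene became 0 at that fold threshold. The median natural log fold change of 2.24 in cluster 2 was 3.86 as the log of the ratio of detected shares. In cluster 13 the median of 0.99 was 1.13 by that ratio and 1.59 without cluster 2 in the reference. The median share of detecting cells held by cluster 13 was 1.52%, and 1.56% with sizes solved without the 10 genes. The median level in cluster 2 over cluster 13 was 1.91, and 1.79 in base 2, and all 10 genes were higher in cluster 2 in base 2 and with sizes by least absolute deviations. No paired analysis was possible because each group has 1 library and the table names none. Depth is unknown. The counting error of a share depends on how many cells its cluster holds, which was not worked out here. All shares therefore stand without a counting error, which matters most in small clusters such as cluster 13, with 0.497% of all cells.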
